A study of Mus musculus with 6 samples.

Results

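The genes described here are 10 that mark simple epithelia, namely *Epcam*, *Cdh1*, *Krt8*, *Krt18*, *Cldn6*, *Cldn7*, *Esrp1*, *Esrp2*, *Grhl2* and *Rab25*. They were chosen by name, from what is known of their function, out of 14647 genes listed in an RNA-seq dataset of the mouse pharyngeal region. Earlier results of these data were known when the choice was made. All 10 were listed and all 10 passed a filter on low values, which 13547 genes passed. The filter was a mean of at least 0.5 RPKM (reads per kilobase of gene, scaled to library size) over the 6 libraries.

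The dataset compared 3 *Pax9*-null (*Pax9-/-*) with 3 wild-type (*Pax9+/+*) mouse embryos at embryonic day 9.5, stage-matched by somite number, with 1 library per embryo. *Pax9* encodes a transcription factor of the pharyngeal endoderm, and the null allele is carried in the germline, so that all cells of an embryo lack it. The dissected piece ran from between the first and second arches to the base of the heart. The labels name flow-sorted cells and a plate-based library protocol, whereas the methods of the study describe RNA of the whole dissected piece, and the latter was followed here. Values are log2 RPKM as deposited, so that 1 unit is a doubling. Effective library sizes were 11509908 to 11728259 reads in the *Pax9*-null and 12352674 to 12692325 in the wild-type libraries.

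In the embryonic pharynx an outer ectoderm and an inner endoderm enclose arches filled with mesenchyme, heart-forming cells and vessels. Both outer and inner sheets are epithelia, whose cells are held together by E-cadherin (*Cdh1*), the adhesion molecule *Epcam* and claudins, and braced by keratin 8 and keratin 18 filaments. The factor *Grhl2* activates many epithelial genes, *Esrp1* and *Esrp2* direct epithelial splicing, *Rab25* recycles membrane proteins to the apical side, and repressors of the Zeb and Snail families, made by mesenchyme, bind E-box sequences in the promoters of several of these genes. The question addressed was whether these epithelial genes differ in level between embryos with and without *Pax9*.

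None of the 10 genes differed between genotypes at an adjusted *P* of at most 0.1 by limma, the threshold used throughout. Called genes made up 26.7% of the 13547 tested, with 12% called lower in *Pax9*-null embryos. At an unadjusted *P* under 0.05, 1 of the 10 epithelial genes (*Cdh1*, lower) and 35.1% of all tested genes passed. For none of the 10 did the 3 libraries of one genotype lie apart from those of the other, which was so for 41.9% of tested genes. Fold changes were positive for 4 genes and negative for 6, and their log2 fold changes ran from −0.53 to 0.18 around a median of −0.02, where that of all tested genes was 0.00. With bulk RNA, fewer cells of a type and less RNA per cell cannot be told apart.

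**Figure D1:**
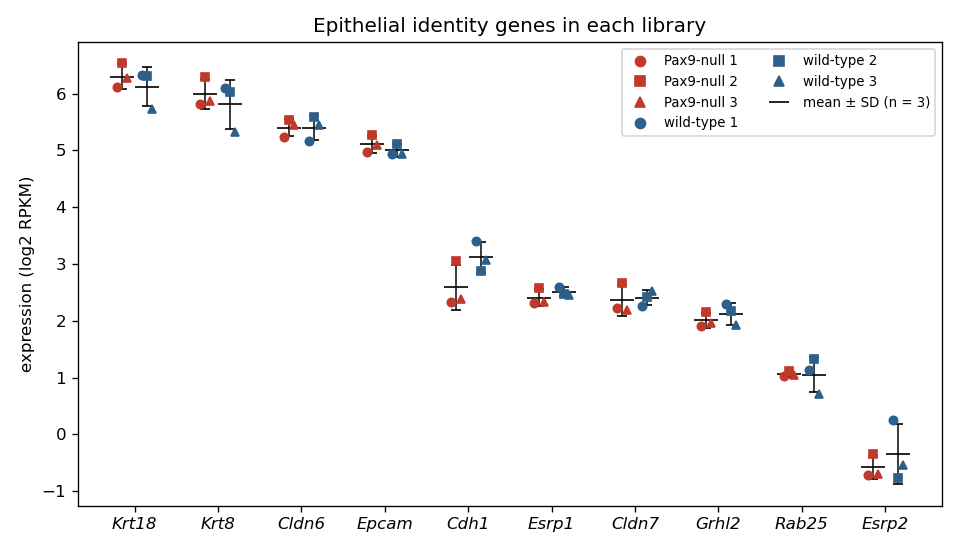
Level of each of the 10 epithelial genes in each library (vertical axis, log2 RPKM; each symbol is 1 library, and bars give the mean ± SD of 3). Levels run from −0.77 for *Esrp2* to 6.53 for *Krt18*, and the libraries of both genotypes overlap for every gene.

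The order of the levels was shared between libraries for most neighbours. *Krt18* was highest, with a mean of 75.2 RPKM, followed by *Krt8* (61.2), *Cldn6* (42.6) and *Epcam* (33.4). A gap of 2.20 ± 0.45 (SD, *n*=6 libraries) on the log2 scale separated *Epcam* from *Cdh1*, which had a mean of 7.49 RPKM. Structural filament and surface proteins thus led the order in RPKM. Below them came *Esrp1* (5.52), *Cldn7* (5.26), *Grhl2* (4.21), *Rab25* (2.1) and *Esrp2* (0.747). *Esrp1* and *Cldn7* could not be separated, since *Esrp1* was the higher of them in 4 of 6 libraries and their log2 difference of 0.08 was smaller than its SD of 0.15. *Krt8* lay above *Cldn6*, and *Cldn7* above *Grhl2*, in 5 of 6 libraries. In every other neighbouring pair the order held in 6 of 6, although *Cdh1* exceeded *Esrp1* by only 0.02 in the closest library.

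Promoter sequence was read for 6 of the 10 genes from RefSeq (GRCm38.p6), as the 250 bases before an annotated start of transcription. *Cdh1*, *Esrp1*, *Esrp2* and *Grhl2* had no entry there. The E-box bound by Zeb and Snail repressors was searched as CAGGTG or CACCTG, which are the same site read on opposite strands. It was found in 6 of 7 windows and in all 6 genes, as against 17.2% of all 32851 windows and 19.4% of 27025 gene symbols. The 3 windows with a pair of matches are shown, because mesenchyme genes for these repressors are among the measured genes described further on. Each is written 5′ to 3′ on the strand of the gene, ends at the base before the start, and has the E-boxes in capitals.
Epcam (chr17:87635729-87635978, + strand): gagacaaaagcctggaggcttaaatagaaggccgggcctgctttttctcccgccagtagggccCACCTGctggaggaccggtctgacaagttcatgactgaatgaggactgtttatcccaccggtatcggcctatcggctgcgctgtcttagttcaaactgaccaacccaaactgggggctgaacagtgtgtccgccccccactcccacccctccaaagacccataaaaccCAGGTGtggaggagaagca
Cldn7 (chr11:69965171-69965420, + strand): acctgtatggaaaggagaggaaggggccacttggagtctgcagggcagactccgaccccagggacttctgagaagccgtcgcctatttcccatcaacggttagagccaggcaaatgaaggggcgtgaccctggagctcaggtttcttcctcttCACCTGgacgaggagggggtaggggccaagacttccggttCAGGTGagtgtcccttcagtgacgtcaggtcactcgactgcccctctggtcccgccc
Rab25 (chr3:88548280-88548529, − strand): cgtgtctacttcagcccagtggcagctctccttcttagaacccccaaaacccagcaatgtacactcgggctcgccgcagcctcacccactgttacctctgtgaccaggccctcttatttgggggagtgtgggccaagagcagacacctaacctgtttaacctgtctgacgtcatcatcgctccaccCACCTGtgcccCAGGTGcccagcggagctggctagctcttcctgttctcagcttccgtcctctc
In *Epcam* the matches began at −187 and −19 from the start, in the second window of *Cldn7* at −97 and −57, and in *Rab25* at −64 and −53. *Krt8*, *Krt18* and *Cldn6* held 1 match each, and the other window of *Cldn7* held none. A match describes these letters only, and binding was not measured.

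Keratins 8 and 18 form the filament pair of simple epithelia. Their genes are neighbours on chromosome 15 (GRCm38), with *Krt8* at 101996698–102004482 on the minus strand and *Krt18* at 102028180–102032027 on the plus strand. *Krt18* (ENSMUSG00000023043) stood at 6.11, 6.53 and 6.27 log2 RPKM in *Pax9*-null replicates 1 to 3 and at 6.32, 6.31 and 5.73 in the wild-type replicates. The lowest value was that of wild-type replicate 3 and the highest that of *Pax9*-null replicate 2. *Krt8* (ENSMUSG00000049382) stood at 5.81, 6.30 and 5.87 against 6.10, 6.02 and 5.32, with the same libraries at the extremes. The log2 fold change was 0.18 for *Krt18* (SE 0.18, limma adjusted *P*=0.497) and 0.18 for *Krt8* (SE 0.22, limma adjusted *P*=0.59). These correspond to 114% (95% confidence interval 84.9 to 152%) and 113% (79.4 to 162%) of the wild-type level. Without wild-type replicate 3 the fold changes turned to −0.01 and −0.07.

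The ratio of the keratin chains varied less than either chain. As log2 of *Krt8* over *Krt18* it was −0.30, −0.23 and −0.40 in *Pax9*-null and −0.22, −0.29 and −0.41 in wild-type libraries. The means were −0.31 ± 0.08 and −0.31 ± 0.09 (SD, *n*=3 each). The difference of 0.00 had a two-sided exact permutation *P* of 1, where 3 libraries against 3 cannot give a *P* below 0.1.

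Wild-type replicate 3, which held the lowest keratin levels, also stood apart in heart muscle. All 9 of 9 cardiomyocyte markers had their lowest level there, with 78.3 RPKM in sum as against 1134 to 1496 in the *Pax9*-null and 1278 and 1379 in the other wild-type libraries. *Nppa*, the atrial natriuretic peptide gene, named after its values were seen, had 0 reads in that library and up to 210 in the others. By limma 0 of 9 markers were called and 0 had an unadjusted *P* under 0.05, as against 26.7% and 35.1% of all tested genes. The median log2 fold change over the list was 0.92, with wild-type replicate 3 included. The 9 markers, centred on their means, averaged 0.67, 0.57 and 0.28 in *Pax9*-null and 1.29, 0.86 and −3.66 in wild-type libraries. The most highly expressed was *Myl7*, an atrial myosin light chain. Embryonic heart muscle also makes keratins 8 and 18. Centred on their means, the 2 keratins stood at −0.53 in wild-type replicate 3 and ran from −0.10 to 0.36 elsewhere, whereas the other 8 epithelial genes stood at −0.04 there. The part of heart tissue in the keratin levels was not tested.

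*Epcam* (ENSMUSG00000045394, chr17:87635979-87651129, plus strand), a surface adhesion molecule of nearly all simple epithelia, had the smallest standard error of the 10 in limma. It stood at 4.98, 5.27 and 5.09 log2 RPKM in *Pax9*-null and at 4.94, 5.12 and 4.93 in wild-type embryos. The ranges overlapped, with *Pax9*-null replicate 2 highest. The log2 fold change was 0.12 (SE 0.10, limma adjusted *P*=0.446), or 108% of wild type with an interval from 91.9 to 128%. It rested on 747 to 908 reads per library.

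*Cdh1* (ENSMUSG00000000303, chromosome 8, 106603351 to 106670246, plus strand) gave the largest difference of the group, and it did not pass the threshold. Its levels were 2.33, 3.05 and 2.39 in *Pax9*-null and 3.40, 2.88 and 3.07 in wild-type libraries. *Pax9*-null replicates 1 and 3 lay below all wild-type libraries, and replicate 2 lay between wild-type replicates 2 and 3. Reads numbered 266, 437 and 281 against 614, 415 and 483. The means were 2.59 ± 0.40 and 3.12 ± 0.27 (SD, *n*=3 each), a log2 fold change of −0.53 with an SE of 0.22. By limma the unadjusted *P* was 0.0449 and the adjusted *P* 0.134. This is 69.5% of the wild-type level, with a 95% confidence interval from 48.8 to 98.9%. Without *Pax9*-null replicate 2 the log2 fold change was −0.76 (SE 0.17, limma adjusted *P*=0.0582), the one alternative in which any of the 10 genes was called. Over all alternatives its adjusted *P* ran from 0.0582 to 0.372 by limma.

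The fold changes of *Cdh1* and *Epcam* thus had opposite signs. In *Pax9*-null replicates 1 and 3, *Epcam* lay above its level in wild-type replicates 1 and 3, and *Cdh1* lay below its level in all wild-type libraries. The difference between the genes was not tested.

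Claudins seal tight junctions between epithelial cells, and *Cldn6* is typical of embryonic epithelia. *Cldn6* (ENSMUSG00000023906, chr17:23679249-23682446, plus strand) stood at 5.24, 5.53 and 5.44 log2 RPKM in *Pax9*-null and 5.17, 5.59 and 5.45 in wild-type libraries. Replicate 2 was highest and replicate 1 lowest in both genotypes. The log2 fold change was 0.00 (SE 0.13, limma adjusted *P*=0.998), with an interval from 81.4 to 123% of wild type. *Cldn7* (ENSMUSG00000018569, chr11:69964779-69967885, plus strand) stood lower, at 2.23, 2.67 and 2.19 against 2.27, 2.42 and 2.53. Its *Pax9*-null libraries held both the highest and the lowest value. The log2 fold change was −0.04 (SE 0.16, limma adjusted *P*=0.866), or 97% of wild type (75.1 to 125%).

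The regulators of epithelial state were among the lower genes of the group. *Grhl2* (ENSMUSG00000022286, chr15:37233036-37363569, plus strand) stood at 1.91, 2.15 and 1.96 log2 RPKM in *Pax9*-null and 2.29, 2.17 and 1.92 in wild-type libraries. Wild-type replicate 3 lay among the *Pax9*-null values, and the log2 fold change was −0.12 (SE 0.15, limma adjusted *P*=0.594), with an interval from 73 to 116% of wild type. *Esrp1* (ENSMUSG00000040728, chr4:11331933-11386783, minus strand) stood at 2.31, 2.58 and 2.34 against 2.60, 2.48 and 2.45. Only *Pax9*-null replicate 2 reached the wild-type range, the log2 fold change was −0.10 (SE 0.12, limma adjusted *P*=0.579), and the interval was 76.4 to 113%.

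*Esrp2*, the paralogue of *Esrp1*, was the lowest of the group and had the widest confidence interval. *Esrp2* (ENSMUSG00000084128, chromosome 8, 106130319 to 106136974, minus strand) stood at −0.72, −0.34 and −0.69 log2 RPKM in *Pax9*-null and 0.25, −0.77 and −0.54 in wild-type libraries, from 30, 39, 31, 65, 31 and 37 reads. Wild-type replicate 1 was the highest and wild-type replicate 2 the lowest. The log2 fold change was −0.23 (SE 0.31, limma adjusted *P*=0.62), with an interval from 51.9 to 140% of wild type. It was 0.07 without wild-type replicate 1. *Esrp1* carried most of the reads of the pair, with 361 to 486 per library.

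*Rab25* (ENSMUSG00000008601, chr3:88542029-88548300, minus strand), a small GTPase of apical recycling, stood at 1.03, 1.11 and 1.04 log2 RPKM in *Pax9*-null and at 1.13, 1.32 and 0.71 in wild-type libraries. The *Pax9*-null values lay inside the wild-type range. From 34 to 51 reads in a library, it had a log2 fold change of 0.01 (SE 0.19, limma adjusted *P*=0.988), and the interval was 74 to 136%.

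Exons of *Krt8*, *Esrp1*, *Esrp2* and *Grhl2* overlap exons of other genes on the opposite strand in GENCODE M21, by up to 219 bases. The counting was run with default settings, which do not use strand, so reads in these overlaps cannot be assigned to one gene.

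**Figure D2:**
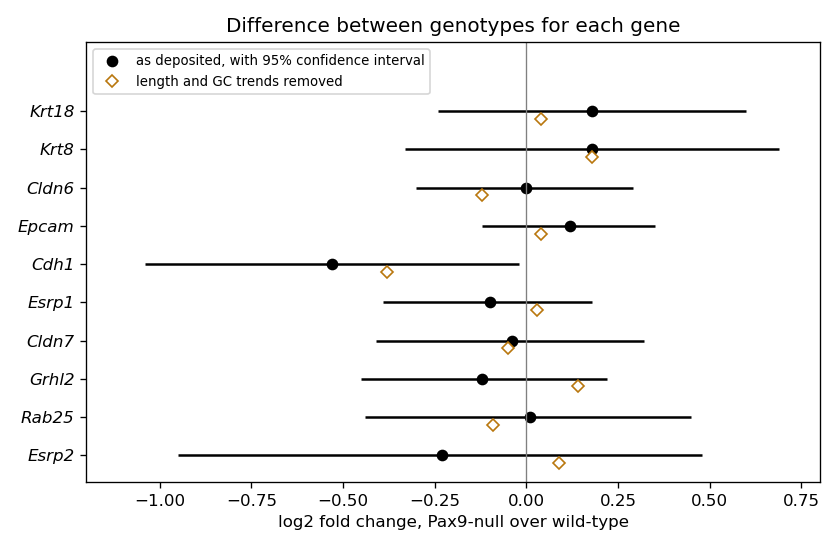
Log2 fold change of each epithelial gene, *Pax9*-null over wild-type (points, with 95% confidence intervals from limma), as deposited and with length and GC trends taken out. As deposited, the interval of *Cdh1* alone ends below 0, at −0.02, and its adjusted *P* was 0.134.

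Each gene is also given with the trend of its library along gene length and GC content taken out, a step that lowered the genes called from 3611 to 521. None of the 10 genes was then called by limma, and the median log2 fold change was 0.03. *Cdh1* moved to −0.38 (limma adjusted *P*=0.296), *Krt18* to 0.04, *Epcam* to 0.04 and *Cldn6* to −0.12, while *Krt8* stayed at 0.18 and *Cldn7* stood at −0.05. *Grhl2* turned to 0.14, *Esrp2* to 0.09 and *Esrp1* to 0.03, and *Rab25* turned to −0.09. The lengths of the 10 genes ran from 1437 bp (*Krt18*) to 8613 bp (*Grhl2*), around a median of 4170 bp for all tested genes, and their GC content from 48.7 to 57.1%, where the median was 49.3%.

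The mean level of the group was compared as a description, with no test. The mean of the 10 log2 levels was 3.12, 3.49 and 3.19 in *Pax9*-null and 3.45, 3.35 and 3.16 in wild-type libraries. The highest library was *Pax9*-null replicate 2 and the lowest *Pax9*-null replicate 1, a span of 0.36. The genotype means, 3.27 ± 0.19 and 3.32 ± 0.15 (SD, *n*=3 each), differed by −0.05. Without the keratins the mean over the other 8 genes differed by −0.11, with a span of 0.35.

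All 10 genes had their highest *Pax9*-null level in replicate 2, as did 34.4% of all tested genes. That library was also the highest *Pax9*-null one for 29 of 37 other epithelial genes, 6 of 7 endothelial and 8 of 14 mesenchyme markers. It was so for 5 of 9 endoderm, 5 of 8 ectoderm, 4 of 9 cardiomyocyte and 1 of 7 neural tube markers. In the same library, all 8 erythroid markers had their lowest *Pax9*-null level. Summed over these markers, it had 2577 RPKM, as against 4771 and 4343 in *Pax9*-null replicates 1 and 3 and 2350 to 2429 in wild-type libraries. Among them *Hbb-y*, an embryonic globin, had the highest level, and *Hbb-bh1*, another embryonic globin (log2 fold change 0.78, limma adjusted *P*=0.067), was called higher in *Pax9*-null embryos. All 8 fold changes were positive, with a median of 0.55. With length and GC trends taken out, *Hbb-bh1* stood at −0.02 (limma adjusted *P*=0.968). The part of the blood content in the epithelial levels was not tested.

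**Figure D3:**
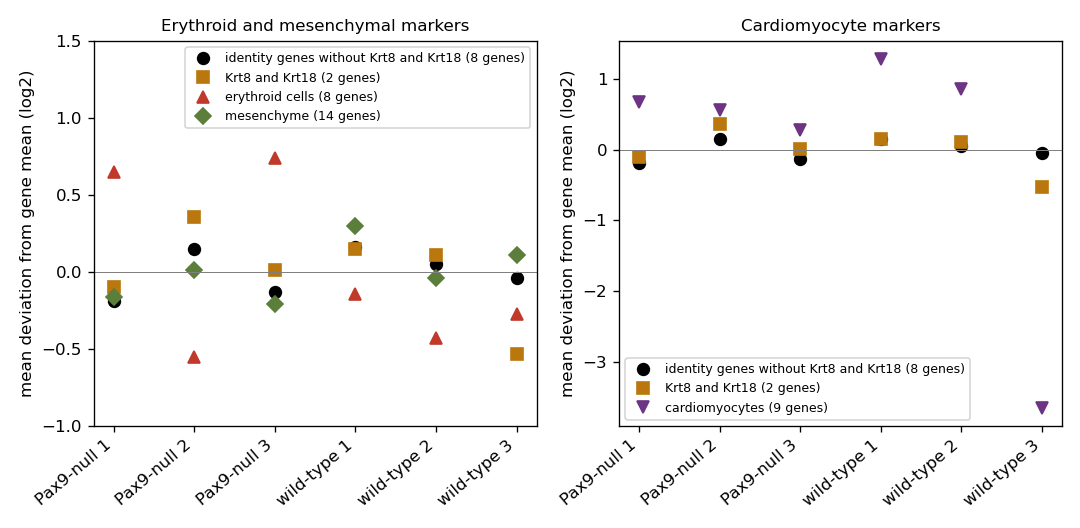
Mean deviation of each list from its genes' means in each library (vertical axis, log2; each point is 1 list in 1 library), for the 8 epithelial genes without keratins, *Krt8* with *Krt18*, and erythroid and mesenchyme markers (left) or cardiomyocyte markers (right, on a wider axis). The 8 genes stay between −0.19 and 0.16, erythroid markers reach 0.74 in *Pax9*-null replicate 3, and cardiomyocyte markers stand at −3.66 in wild-type replicate 3.

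The profile of the 10 genes over the 6 libraries was also matched against all other tested genes, by the root mean square difference of centred log2 levels. The closest were *Herc3* (0.04), *Dkk1* (0.05), *Spice1* (0.05), *Zcchc3* (0.06) and *Prkce* (0.06). *Dkk1* encodes a secreted inhibitor of Wnt signalling. Of the group itself, *Grhl2* and *Esrp1* (0.06 each) followed the mean profile most closely, and *Cdh1* (0.30) and *Esrp2* (0.28) were farther from it than the median tested gene (0.26). The mean profile includes each of the 10 genes, so their distances are not on the same footing as those of other genes.

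Other genes of epithelial cells were read from 4 lists, with 37 tested of 47. None was called higher and 3 (8.11%) were called lower, where 26.7% of all tested genes were called and 12% were called lower. Fold changes were negative for 26 and positive for 11, with a median of −0.22. Libraries of the genotypes did not overlap for 6 of the 37, 5 of them lower in *Pax9*-null embryos, as against 41.9% of all tested genes. With the length and GC trends removed, none of the 37 was called by limma and the median was −0.13.

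Of the junction and adhesion genes, 1 of 12 was called. *Lsr*, which places proteins at the corners where 3 cells meet, stood at 2.35, 2.41 and 2.33 log2 RPKM in *Pax9*-null and at 2.61, 2.90 and 2.59 in wild-type libraries. It fell in *Pax9*-null embryos by 0.34 on the log2 scale (SE 0.12, limma adjusted *P*=0.099), with a median over the list of −0.08. *F11r*, the junctional adhesion molecule JAM-A and the most highly expressed of them, had a log2 fold change of −0.04 (limma adjusted *P*=0.901).

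Of the desmosome, hemidesmosome and other keratin genes, 1 of 12 was called. *Jup*, the plakoglobin that links cadherins to keratin, stood at 1.74, 2.15 and 1.53 in *Pax9*-null and at 2.84, 2.39 and 2.17 in wild-type libraries. It fell by 0.66 on the log2 scale (SE 0.22, limma adjusted *P*=0.0832), and the list had a median of −0.29. *Itga6*, an integrin of the basal surface and the highest of the list, had a log2 fold change of −0.01 (limma adjusted *P*=0.973). Desmosome genes are also active in heart muscle, and the mean of this list was lowest in wild-type replicate 3, at 1.30, and highest in wild-type replicate 1, at 2.34.

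Among the other epithelial regulators 3 were tested, and *Elf3*, an Ets factor of epithelia, was called lower. It stood at −0.93, −0.55 and −0.66 in *Pax9*-null and at 0.53, 0.33 and −0.37 in wild-type libraries, from 13 to 40 reads, with a log2 fold change of −0.87 (SE 0.28, limma adjusted *P*=0.0778). *Grhl3*, a relative of *Grhl2*, was the highest of them and was not called (−0.37, limma adjusted *P*=0.512). *Ovol1*, *Ehf*, *Klf5* and *Spdef* were not analysed here. None of the 10 trafficking, polarity and protease genes was called by limma, with 1 at an unadjusted *P* under 0.05 and a median of −0.22. The highest of these was *Prss8*, a membrane-bound protease (−0.22, limma adjusted *P*=0.229). Without *Pax9*-null replicate 1 or replicate 3, or with the trends removed, no gene of any list was called by limma, and in the whole table the genes called numbered 301 and 175 without those libraries. The log2 fold changes were then −0.33 and −0.32 for *Lsr* (limma adjusted *P* of 0.249 and 0.209), −0.63 and −0.52 for *Jup* (0.239 and 0.216) and −0.76 and −0.90 for *Elf3* (0.239 and 0.167). Without replicate 2, *Jup* was still called (−0.83, limma adjusted *P*=0.0662), and *Lsr* (−0.36, 0.144) and *Elf3* (−0.96, 0.106) were not.

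**Figure D4:**
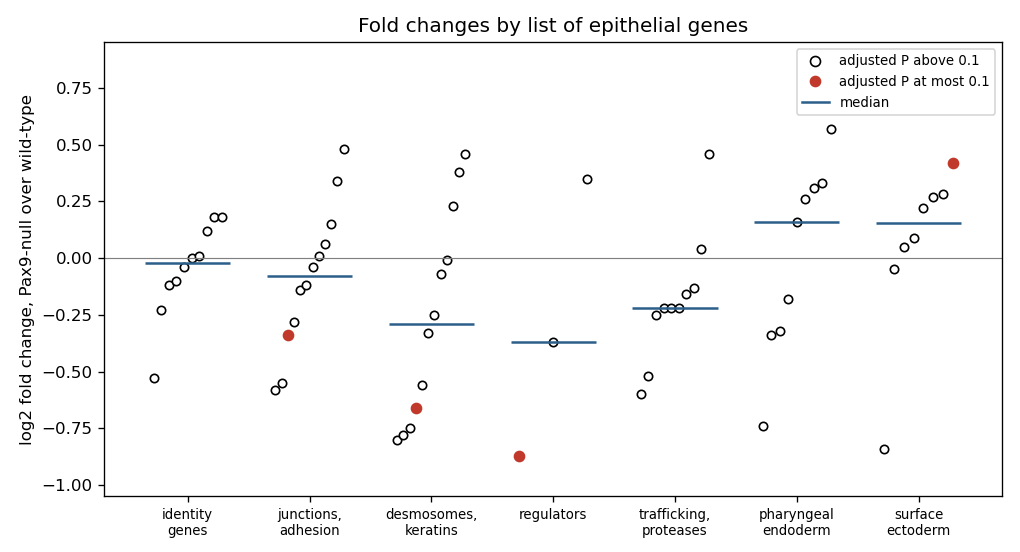
Log2 fold change, *Pax9*-null over wild-type, of every tested gene in the 10 epithelial genes, the 4 lists of other epithelial genes and the endoderm and ectoderm markers (circles; red where limma's adjusted *P* was at most 0.1; lines are medians). The 10 genes lie around −0.02 with none called, and 4 genes are red, of which *Perp* alone lies above 0.

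Markers listed for each of the epithelial sheets of the pharynx were also read. Of 9 tested markers of pharyngeal endoderm none was called by limma, where 26.7% of all tested genes were called. At an unadjusted *P* under 0.05, 1 of these markers and 35.1% of all tested genes passed. Fold changes of the endoderm markers were positive for 5 and negative for 4, with a median of 0.16. *Sox2*, a factor that is also strong in neural tissue, was the highest of them, at 5.53 log2 RPKM on average (log2 fold change 0.26, limma adjusted *P*=0.378). *Nkx2-1*, *Hhex* and *Gcm2* were not analysed here. Of 8 surface ectoderm markers, *Perp*, a desmosome protein and the highest of them, was called higher, with a log2 fold change of 0.42 (limma adjusted *P*=0.0482). It stood at 4.19, 4.06 and 3.90 in *Pax9*-null and 3.61, 3.74 and 3.53 in wild-type libraries, and its fold change was 0.10 with the length and GC trends removed (limma adjusted *P*=0.6). The ectoderm list had a median of 0.15.

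In the mesenchyme list 1 of 14 genes was called higher and 3 were called lower, with a median of −0.24. This share, 28.6%, is close to the 26.7% of all tested genes. *Pdgfrb*, a growth factor receptor of mesenchyme (log2 fold change −0.83, limma adjusted *P*=0.0414), *Zeb1* (−0.53, 0.0806) and *Cdh2*, or N-cadherin (−0.38, 0.0605), were lower. *Vim*, the intermediate filament gene of mesenchyme and the highest of the list, had a log2 fold change of −0.01. *Twist1*, a factor of mesenchyme named after its value was seen as the 1 gene called higher, had 0.35 (limma adjusted *P*=0.0399). With length and GC trends taken out, none of the 14 was called by limma. Log2 fold changes were then −0.48 for *Pdgfrb* (limma adjusted *P*=0.13), −0.16 for *Cdh2* (0.21) and 0.30 for *Twist1* (0.153).

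Of the repressors that bind E-boxes, none was called higher and *Zeb1* was called lower. *Zeb1* stood at 2.97, 3.04 and 2.83 log2 RPKM in *Pax9*-null and at 3.86, 3.17 and 3.40 in wild-type libraries. With length and GC trends taken out, *Zeb1* had a log2 fold change of −0.40 and was not called (limma adjusted *P*=0.131). The other repressors were named after their values were seen. *Zeb2* had a log2 fold change of −0.30 (limma adjusted *P*=0.125), *Snai1* −0.40 (0.216) and *Snai2* 0.23 (0.432), none of them called. *Epcam*, *Cldn7* and *Rab25*, whose promoter windows held a pair of E-boxes, had 0.12, −0.04 and 0.01. *Krt8*, *Krt18* and *Cldn6*, with 1 match each, had 0.18, 0.18 and 0.00. *Cdh1*, whose promoter was not read, had −0.53. Whether the repressors act on these genes was not tested.

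*Pax9* itself (ENSMUSG00000001497, chr12:56691767-56712822) separated the genotypes in every library. It stood at −0.43, −0.63 and −0.59 log2 RPKM in *Pax9*-null and at 0.63, 0.71 and 0.96 in wild-type libraries, a log2 fold change of −1.32 (SE 0.19, limma adjusted *P*=0.0155). The remaining 37 to 43 reads per *Pax9*-null library lie on the annotated gene as a whole, and which exons they cover was not analysed here. In the pharynx *Pax9* is a gene of the endoderm, and of the 9 endoderm markers and the 10 epithelial genes tested beside it, none was called by limma, with 1 of each at an unadjusted *P* under 0.05. Of all tested genes 26.7% were called and 35.1% had an unadjusted *P* under 0.05. With 3 embryos a genotype, a gene that was not called may still differ.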

How the data were processed

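RNA of 3 *Pax9*-null and 3 wild-type pharyngeal regions was sequenced. Per the methods and submitters' processing notes, the authors trimmed reads with Trimmomatic 0.32, kept uniquely aligned, non-redundant reads, sub-sampled the libraries towards the smallest, aligned to GRCm38 with STAR 2.5.1a (the methods name another release) and counted reads on Ensembl genes with featureCounts 1.5.1 (default parameters). The deposited values are log2 RPKM. Neither the prior count (0.5) nor the library sizes are stated, and both were inferred from the values, of which 82.7% gave whole reads (within 0.05) at GENCODE M21 gene lengths, and lengths were searched for 22 list genes. Keeping unique reads also removes reads shared with pseudogenes, such as that of *Krt8*.

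Genes averaging 0.5 RPKM or more were tested on the deposited scale with limma 3.58.1 in R 4.3.3 (variance trend, two-sided, Benjamini-Hochberg over 13547 genes, threshold 0.1), which was tested on simulated data. Single genes and the keratin ratio were also given exact permutation tests. Named genes were the 10 members, *Pax9*, the highest and at most 3 called genes of each list, and the 5 closest profiles. The members and lists were chosen with earlier results of these data known. Alternatives were other pseudocounts, filters, scalings, variance models, weights and thresholds, removal of trends with gene length and GC content in every library (splines with 4 degrees of freedom), a replicate block, and leaving out each library. Of the genes listed, 30 had no length. Of the hepatocyte or visceral endoderm markers, 1 was listed, below the filter. The values of 1 marker gene are not reported here.

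*P* values measure the spread between embryos, and the 3 libraries of a genotype give a median SD of 0.15 (*Pax9*-null) and 0.17 (wild-type) on the log2 scale over all tested genes.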

Additional observations from a re-analysis of the deposited data

How the results depend on the processing

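Of 177 values of single epithelial genes under 18 alternatives, 1 was called (*Cdh1*) and 21 had another sign than in the analysis as reported. The number of the 10 genes called was 0 under all alternatives but 1, and ranged from 0 to 1 with any one library left out. Without *Pax9*-null replicate 2 it was 1. Genes called in the whole table (3611) numbered 521 with length and GC trends removed, 1377 with the replicate block, 195 with the block and the trends removed, and 1335 at an adjusted *P* of 0.05. With one library left out they ranged from 175 (without *Pax9*-null replicate 3) to 3578. They numbered 301 when *Pax9*-null replicate 1 was left out, and 1799 and 2141 when wild-type replicates 1 and 3 were. Calls among the other lists (13 of 99) numbered 0 with the trends removed, 4 with the replicate block, 0 with both, 21 with library weights and 4 at 0.05. With one library left out they ranged from 0 (*Pax9*-null replicate 1 or 3) to 21 (*Pax9*-null replicate 2), with 5 without wild-type replicate 1.

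Where the sign changed, the log2 fold change under the alternative lay between −0.16 and 0.14. In the analysis as reported it was −0.23 for *Esrp2*, −0.12 for *Grhl2* and 0.18 for *Krt8*. With trends removed, with or without the replicate block, the log2 fold change was 0.03 for *Esrp1*, 0.09 for *Esrp2*, 0.14 for *Grhl2* and −0.09 for *Rab25*. The keratin ratio, computed without a block only, differed by 0.14 with trends removed. *Rab25* was at 0.00 with a pseudocount of 1 RPKM, and *Cldn6* at 0.03 with median centring. With one library left out, log2 fold changes ranged from −0.12 to 0.09 for *Cldn6*, −0.20 to 0.04 for *Cldn7*, −0.16 to 0.14 for *Rab25*, −0.44 to 0.07 for *Esrp2*, −0.07 to 0.32 for *Krt8* and −0.01 to 0.29 for *Krt18*, and the difference in the keratin ratio from −0.05 to 0.04. The cause was not tested. The mean level of the 10 genes differed by −0.16 to 0.02. *Pax9* was called in all 17 alternatives that tested it, with a log2 fold change of −0.68 at a pseudocount of 1 RPKM.

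Neither the sample titles nor the methods of the study say that replicate numbers pair the embryos. Correlations of same-numbered libraries' deviations from their genotype means were −0.02, −0.17 and 0.26. These values cannot show whether same-numbered embryos shared a litter or a batch, which was not tested. None of the 10 genes was called with the block or without it.

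With 3 embryos a genotype the smallest exact permutation *P* is 0.1, so calls rest on the variance limma shares between genes. *Esrp2*, *Rab25* and *Elf3* rest on few reads (30 to 65, 34 to 51 and 13 to 40). The genotype was not crossed with dissection or blood content.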

Other observations

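Markers of vessels and neural tube were measured in the same dissections. Of 7 tested endothelial markers 2 were called lower in *Pax9*-null embryos, namely *Cdh5*, the cadherin of endothelial junctions (log2 fold change −0.67, limma adjusted *P*=0.0735), and *Tie1*, a receptor of vessels (−0.74, 0.082). The called share, 28.6%, was close to the 26.7% of all tested genes, of which 12% were called lower. The list had a median of −0.46, and *Tek*, the highest of them, had −0.05 (limma adjusted *P*=0.937). *Cdh5* stood at 2.96 to 3.42 log2 RPKM in *Pax9*-null and at 3.55 to 4.26 in wild-type libraries, without overlap. Of 7 neural tube markers *Elavl3*, an RNA-binding protein of young neurons, was called lower (−1.27, limma adjusted *P*=0.0411). *Elavl3* stood at −0.69, −0.57 and −0.93 in *Pax9*-null and at 0.76, 0.01 and 0.86 in wild-type libraries. *Tubb3*, the neuronal tubulin and the highest of that list, had −0.69 (limma adjusted *P*=0.11), and the list had a median of −0.05 and a called share of 14.3%. With length and GC trends taken out, none of these 3 was called, at −0.49 for *Cdh5* (limma adjusted *P*=0.187), −0.35 for *Tie1* (0.357) and −0.90 for *Elavl3* (0.123).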
